A study of Mus with 4 samples.

Results

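Circular RNAs (circRNAs) of 8 genes of the photoreceptor connecting cilium and its gate were examined in mouse ocular tissue: Rpgrip1, Rpgrip1l, Cep290, Nphp4, Iqcb1, Spata7, Lca5 and Fam161a. A circRNA is a closed ring formed when a splice donor joins an acceptor that lies upstream of it, and a read across that back-splice counts as a junction read. Every circRNA in the 4 deposited tables whose gene identifier named 1 of these hosts was taken, which gave 88 of 44073 circRNAs, from 8 of 7252 host genes. None of the 88 was assigned to a further host.

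The 4 groups held 1 library each, made from ocular tissue of C57BL/6J mice that breathed 75% oxygen from postnatal day 7 to 12. Wild-type mice and mice with a VLDLR deletion were each sampled at postnatal days 12 and 13 (P12 and P13). The P12 tissue was taken straight after oxygen and the P13 tissue 1 day later in air, so that age and return to air cannot be told apart. VLDLR is the very-low-density lipoprotein receptor. All groups had the oxygen treatment, so that no library shows untreated tissue. The labels give neither the nature of the VLDLR allele nor the number of animals pooled in a library.

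The light-sensing outer segment of a photoreceptor is a modified cilium, joined to the cell body by a narrow connecting cilium through which its proteins must pass. The connecting cilium corresponds to the transition zone of other cilia, where Y-shaped links tie the microtubules to the membrane and a set of scaffold proteins controls entry. Mutations in genes of this structure cause early retinal dystrophies such as Leber congenital amaurosis, and some also cause kidney and brain ciliopathies.

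Nphp4 fell in the VLDLR deletion on summed junction reads by both edgeR and DESeq2, and 2 of its circRNAs fell by edgeR's test. Rpgrip1, which gave most of the reads, was nearly level on summed reads while 3 of its minor circRNAs rose, 2 of them closed from the same acceptor as its leading circRNA. In Lca5 1 circRNA fell by edgeR's test. None of the 3 calls of a lower circRNA held in DESeq2, while the 3 calls of a higher one did. No circRNA of these hosts changed between P12 and P13 in the fit over 4 libraries.

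The wild-type libraries held 662811 junction reads at P12 and 759063 at P13, and the deletion libraries 299723 and 341873. Values below are given in this order. Wild-type reads carry the name of 1 sequencing run and deletion reads that of another, so that a difference of genotype cannot be told apart from one of run. Vldlr had 0 junction reads in all libraries and gave no check of the labels. Of 25 photoreceptor marker genes 18 had circRNAs, with summed levels of 4320, 5197, 7257 and 7735 CPM (junction reads per library size, scaled between libraries by the TMM method of edgeR), while Gnat1, Nrl, Rom1, Cnga1, Arr3 and Eys were among those at 0. Lens markers (5 of 7 listed) stood at 823, 1028, 2666 and 1978, pigment epithelium markers (4 of 7) at 102, 115, 188 and 192, and motile cilium markers (3 of 5) at 83.1, 50.4, 258 and 348. On this TMM scale these sums were higher in both deletion libraries than in both wild-type ones. Raw reads were lower in both deletion libraries for photoreceptor (2704, 3716, 1968 and 2378) and pigment epithelium markers. Those of lens markers overlapped, and those of motile cilium markers were higher. For these sums the direction thus depends on the scaling, except for the motile cilium markers. The part of these sums in the results below was not tested. Bipolar, endothelial, Mueller glia and inner retinal neuron markers overlapped between the genotypes on the TMM scale. In raw reads both deletion libraries were lower for bipolar (626, 640, 359 and 293), endothelial (40, 77, 23 and 29) and inner retinal neuron markers (9, 14, 8 and 4). Mueller glia markers overlapped in raw reads too. In such bulk tissue, fewer cells of a type and less RNA per cell cannot be told apart.

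The 8 hosts together gave 2916, 3652, 1304 and 1369 junction reads. They were 0.440% (95% exact binomial interval 0.424% to 0.456%), 0.481% (0.466% to 0.497%), 0.435% (0.412% to 0.459%) and 0.400% (0.380% to 0.422%) of all junction reads. The share was lowest in deletion P13 and highest in wild type P13, and the 2 P12 libraries lay within each other's intervals. Intervals here and below cover counting error only, since no molecular identifiers are described. The tables listed 60, 71, 48 and 52 of the 88 circRNAs. At an equal depth of 299723 reads the expected numbers were 49.5, 53.5, 48 and 49.5, which lie closer together than the numbers listed. All 4 libraries listed 37 of the 88, and these 37 held 96.0% of the reads. A further 28 were listed in 1 library alone, with at most 8 reads. Wild type alone listed 28 of the 88 (31.8%, against 42.3% of all circRNAs) and the deletion alone 10 (11.4%, against 10.7%).

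Most of the 88 were of the exon class (77), and 11 were of the intron class, 6 from Rpgrip1 and 5 from Lca5. Their genomic span, introns included, ran from 453 bases (Rpgrip1l, chromosome 8, 91270099 to 91270551) to 42362 bases (Nphp4, chromosome 4, 152496649 to 152539010). The median span was 6756 bases, against 11014 for all other circRNAs. Coordinates are those of the deposited tables; the sources used here do not name their genome build.

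The hosts differed over a wide range. Junction reads fall on 1 splice junction each and were not divided by a length. Host levels below are a host's summed junction reads as CPM, with library sizes and TMM scaling taken from the host sums. This scale is not the one used for single circRNAs. Rpgrip1 led at 3230, 3597, 3817 and 3314 CPM and ranked 31 of 7252 hosts on the mean of the 4 libraries. It gave 71.9% of all member reads. Lca5 followed at 824, 904, 590 and 768. Nphp4 stood at 336, 365, 140 and 97.6, and Spata7 at 187, 165, 151 and 182. Nphp4 was above Spata7 in both wild-type libraries and below it in both deletion libraries. Cep290 held 39.9, 46.2, 77.4 and 58.5. Rpgrip1l, Fam161a and Iqcb1 were near the limit of detection, with 35, 22 and 10 reads over the 4 libraries, and their order cannot be read from so few reads.

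**Figure D1:**
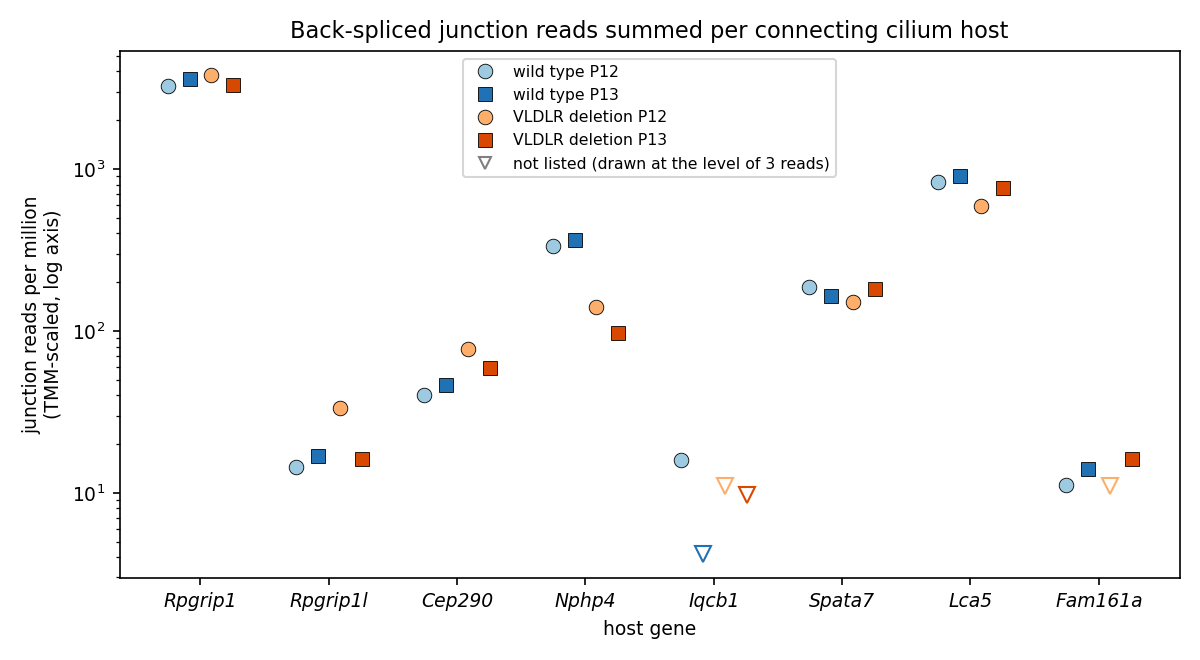
Scaled junction reads (CPM, log axis) summed over the circRNAs of each host, 1 point per library; open triangles mark a host with no listed circRNA, drawn at the level of 3 reads. The 2 wild-type points of Nphp4 (336 and 365) lie above the 2 deletion points (140 and 97.6), while the 4 points of Rpgrip1 lie between 3230 and 3817.

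For the genotype, edgeR's quasi-likelihood test was fitted over all 4 libraries with the day as a further term. A circRNA entered when 2 or more libraries gave it 10 or more reads, as 8785 did, and p-values were Benjamini-Hochberg adjusted over all of them (threshold 0.05). The libraries of a genotype differ by a day and nothing in the labels makes them replicate animals. The p-values therefore do not measure spread between animals. They rest on the spread left among these 4 libraries, with 1 residual degree of freedom. That spread was moderated for each circRNA or host towards the spread over all those tested. Of the 88 circRNAs 26 were tested and 62 had too few reads. Of the 26, 4 passed the filter through the wild-type libraries alone. Among the 26, 3 rose and 3 fell, where 5.03% of all tested circRNAs were called higher and 3.59% lower. At an unadjusted p under 0.05 there were 5 higher (11.1% of all tested) and 7 lower (9.49%). The log2 fold change was above 0 for 9 and below 0 for 17, with a median of -0.32 against -0.08 over all tested. All 4 that passed the filter through the wild-type libraries alone were below 0, a sign that this way of entry favours. DESeq2 called 3 of the 26 higher (3% of all circRNAs to which it gave an adjusted p) and 0 lower (1.64%).

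These fold changes are relative to the typical circRNA. On the authors' SRPBM scale, the deposited signal in which each library's counts are divided by 1 constant, the median of all circRNAs shifted to -1.54, and of all hosts to -1.56. On that scale 0 member circRNAs were called higher (0.285% of all) and 16 lower (54.4%). Directions below hold relative to the median, and the SRPBM value is given where the sign turns.

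**Figure D2:**
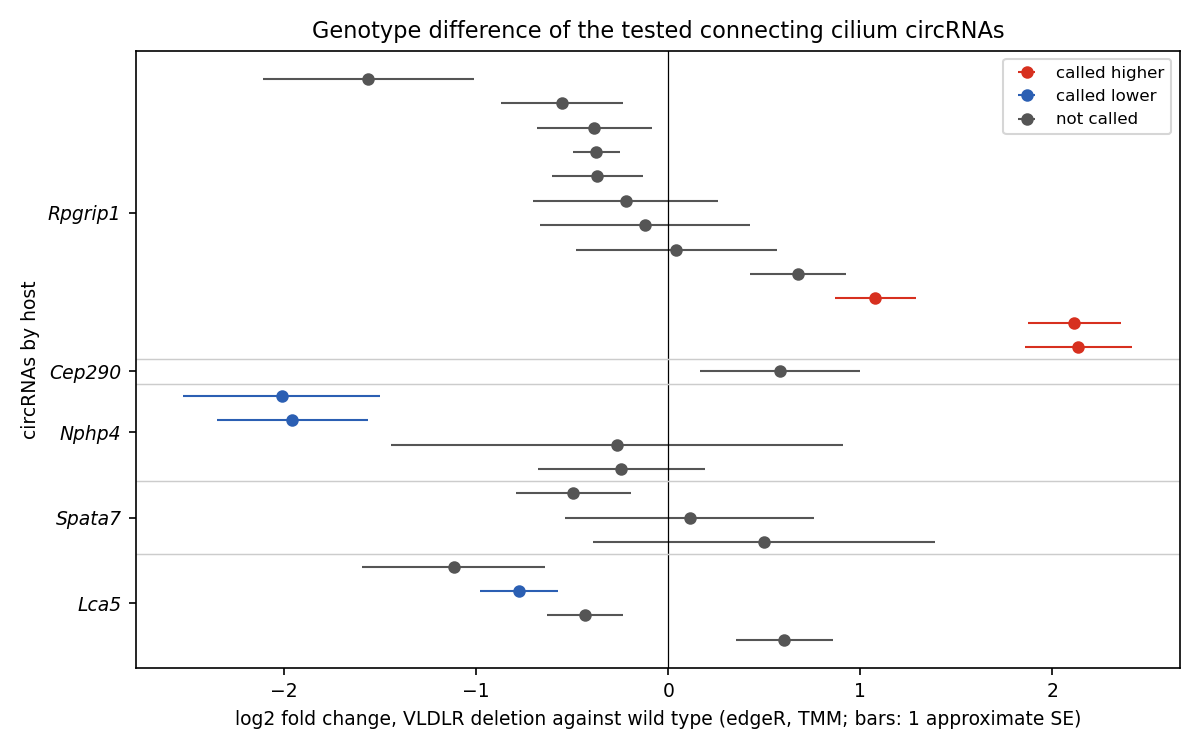
Log2 fold change of the deletion against wild type (edgeR, points, with bars of 1 approximate SE) for the 24 tested circRNAs whose SE was under 1.5, grouped by host. The 3 points called higher are all from Rpgrip1 (1.08, 2.11 and 2.14), and the points called lower are from Nphp4 (-1.96 and -2.01) and Lca5 (-0.78).

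Rpgrip1 encodes the RPGR-interacting protein that anchors RPGR, Nphp4 and Spata7 at the connecting cilium. Its summed reads of 2022, 2572, 1035 and 1019 gave a log2 fold change of 0.06 (SE 0.10, adjusted p 0.778 by edgeR's quasi-likelihood test). The sign was not stable: it was -0.00376 when scaled on total reads and -1.46 on the SRPBM scale, which is close to the median host there. The 44 Rpgrip1 circRNAs used 18 acceptors and 15 donors. The leading circRNA, of the exon class and placed on chromosome 14 from 52120473 to 52133859, held 1355, 1731, 522 and 543 reads and 62.4% of the host's reads, and ranked 36 among all 44073. Its log2 fold change of -0.37 (SE 0.12) did not pass (adjusted p 0.0685, edgeR).

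A further 3 Rpgrip1 circRNAs of lower abundance rose. The one of 2302 bases farther downstream (52156153 to 52158454, exon class) held 51, 39, 116 and 64 reads. Both deletion libraries were above both wild-type libraries in raw reads, although their total depth was lower. It rose by 2.11 (SE 0.24) on the log2 scale, with an adjusted p of 1.98e-05 by edgeR and 1.36e-05 by DESeq2. The shortest Rpgrip1 circRNA, of 649 bases (52120473 to 52121121), held 38, 23, 68 and 52 reads and again showed no overlap between the genotypes. It rose by 2.14 (SE 0.28; adjusted p 9.37e-05 by edgeR and 6.08e-04 by DESeq2). On the SRPBM scale these log2 values were 0.66 and 0.69, and neither passed there.

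The circRNA of 5912 bases (52120473 to 52126384) had nearly equal raw reads of 92, 98, 95 and 86 in libraries of unequal depth. It rose by 1.08 (SE 0.21; adjusted p 0.00315 by edgeR and 0.0470 by DESeq2) but stood at -0.38 on the SRPBM scale. The remaining 10 tested Rpgrip1 circRNAs did not pass. Among these, 52126279 to 52133859 (61, 91, 53 and 55 reads) had a log2 fold change of 0.67 (-0.79 on the SRPBM scale, where it passed as lower with an adjusted p of 0.0475), and 52120473 to 52131432 of the intron class (34, 32, 4 and 6 reads) of -1.56. Their adjusted p were 0.114 and 0.0933 by edgeR on the TMM scale.

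The leading circRNA and 2 of the 3 that rose share the acceptor at 52120473, so the donors joined to it were compared as shares of its reads. This acceptor joined 11 donors and took 76.9% of the host's reads over the 4 libraries, with exact intervals of 78.2% to 81.7% in wild type P12 and 66.6% to 72.3% in deletion P12. The donor of the leading circRNA took 83.8% (81.9% to 85.6%), 85.0% (83.4% to 86.5%), 72.6% (69.2% to 75.8%) and 73.5% (70.1% to 76.6%) of the 1617, 2037, 719 and 739 reads from the acceptor. The deletion intervals lay wholly below the wild-type ones. The donor that closes the 649-base circRNA took 2.35%, 1.13%, 9.46% and 7.04%, and that of the 5912-base circRNA 5.69%, 4.81%, 13.2% and 11.6%. For both, the 2 deletion intervals lay above the 2 wild-type intervals. The donor at 52131305, with 198 reads in all, took 3.40%, 4.52%, 2.50% and 4.47%, and there the genotypes overlapped. Among these 4, the 2 donors nearest to the acceptor took a larger share in the deletion libraries and the farthest a smaller one. Other donors of this acceptor did not follow such an order. The donor at 52131432, nearer than the leading one, took 2.10%, 1.57%, 0.556% and 0.812%. The one at 52136818, farther than the leading one, took 1.18%, 1.77%, 1.11% and 1.76%. A larger share for some donors must also lower that of others. Shares within 1 acceptor do not depend on the scaling between libraries, but they use the same junction reads as the calls.

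**Figure D3:**
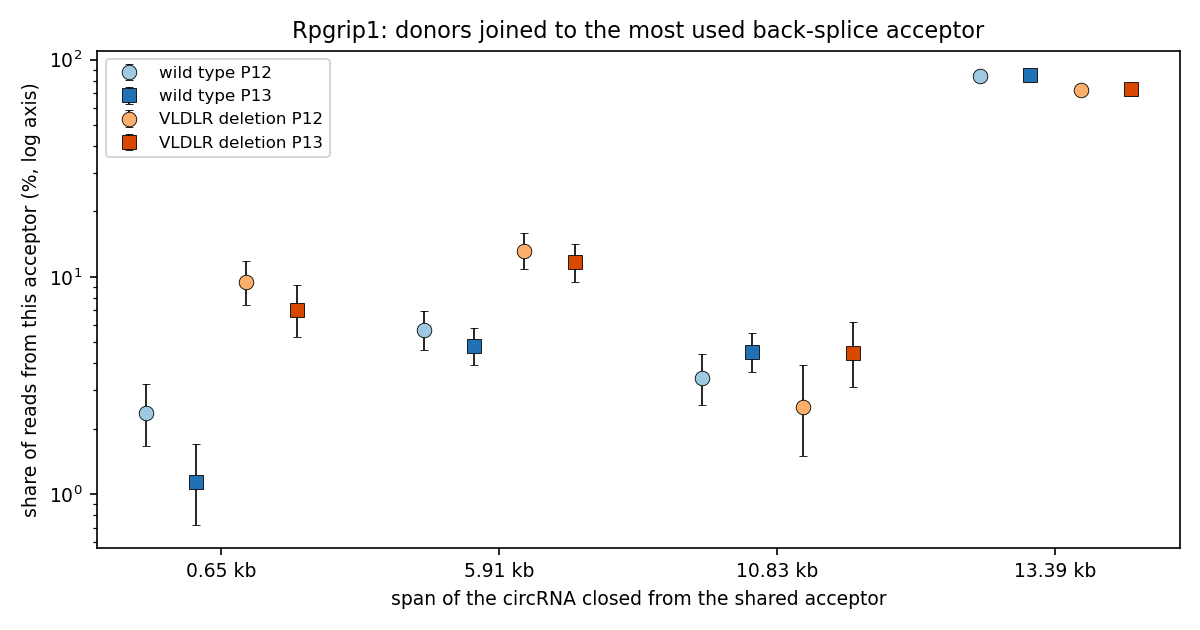
Share of the reads from the most used Rpgrip1 acceptor (%, log axis) that joined each of the 4 most used donors, labelled by the span of the resulting circRNA, 1 point per library with exact binomial 95% intervals. The deletion libraries lie above the wild-type libraries at the 2 short spans and below them at the longest (72.6% and 73.5% against 83.8% and 85.0%).

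Over the 602 hosts with at least 100 reads in every library and 2 or more circRNAs, the share of the leading circRNA shifted by a median of 1.19 percentage points in the deletion (quartiles -3.47 and 6.34). In Rpgrip1 it fell by 15.3 points, from a mean of 67.2% to 51.9%, and in Lca5 by 9.37 points, from 41.5% to 32.2%. Both deletion libraries were below both wild-type libraries for these 2 hosts, as for 25.4% of the 602. Spread between animals of a genotype could not be measured for these shares.

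Junction ratios set junction reads against non-junction reads at the same splice sites. They are 2 times the junction reads over that number plus the non-junction reads. The ratio is not a balance of circular against linear RNA, since linear RNA was depleted. The donors of the 649-base and 5912-base circRNAs also lie inside the leading circRNA. Splices within that ring can count as non-junction reads there. For the leading Rpgrip1 circRNA the ratio was 0.887, 0.877, 0.839 and 0.813. For the 649-base circRNA it was 0.057, 0.028, 0.190 and 0.138, for the 5912-base one 0.131, 0.107, 0.243 and 0.197, and for the 2302-base one 0.626, 0.464, 0.820 and 0.653. The 3 that rose had higher ratios in both deletion libraries, but the ratio holds the junction reads that gave the calls. The ratios are thus no separate support for the calls. Of 11 member circRNAs with at least 20 reads in every library 4 had both deletion ratios below both wild-type ratios and 4 had both above. Over all 2193 such circRNAs these patterns made up 24.7% and 29.5%.

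**Figure D4:**
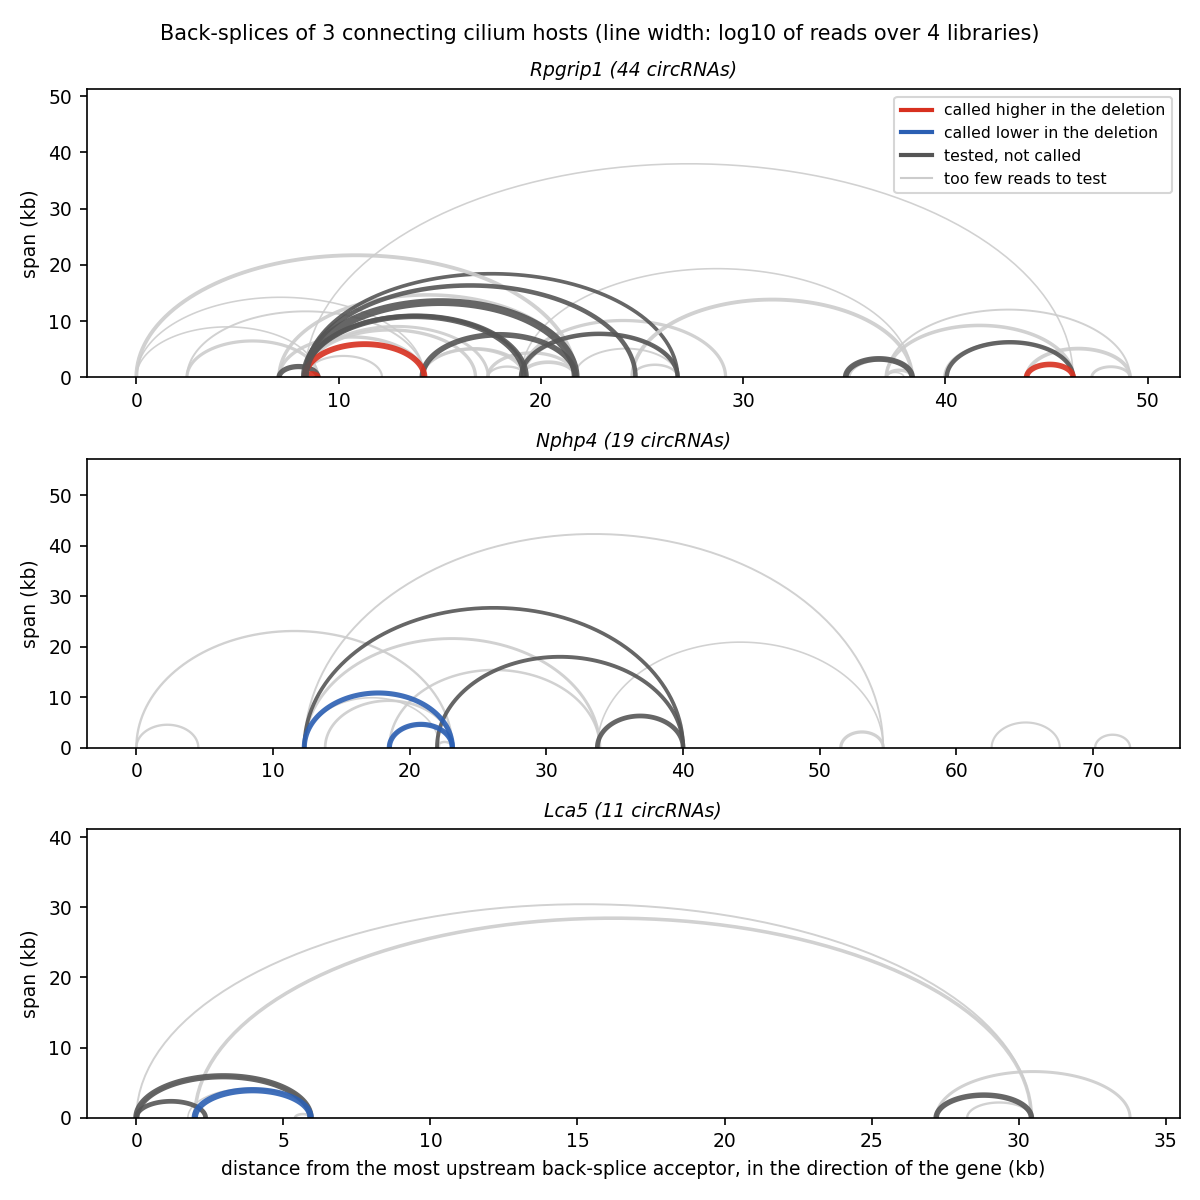
Back-splices of Rpgrip1, Nphp4 and Lca5 drawn as arcs from acceptor to donor; the horizontal axis is the distance from the most upstream acceptor (kb), arc height is the span (kb) and line width grows with the log10 of the reads over 4 libraries. Red and blue arcs were called higher and lower in the deletion: 2 red Rpgrip1 arcs start at the acceptor used by its thickest arc, and the 2 blue Nphp4 arcs end at the same donor.

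Spata7 encodes a photoreceptor protein that keeps Rpgrip1 and its partners along the connecting cilium. Its 7 circRNAs summed to 117, 118, 41 and 56 reads, and the log2 fold change of -0.07 (SE 0.27) did not pass (adjusted p 0.913, edgeR). The leading circRNA lay on chromosome 12 (98659550 to 98668889, exon class) and had 86, 78, 20 and 33 reads. Its share of the host was 73.5%, 66.1%, 48.8% and 58.9%, with wide intervals (32.9% to 64.9% in deletion P12). The next, from 98658213 to 98664305 and from 98648349 to 98668889, held 13, 20, 10 and 6 reads and 10, 12, 4 and 11 reads. None of these 3 passed.

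Nphp4 encodes nephrocystin-4, a transition zone scaffold mutated in nephronophthisis and a binding partner of Rpgrip1. Its summed reads were 210, 261, 38 and 30, and the genotypes did not overlap on the scaled level. The log2 fold change was -1.57 (SE 0.25), with an adjusted p of 2.92e-08 by edgeR and 0.00130 by DESeq2. On summed reads it was the single host that fell of the 5 tested, where 6.47% of all 3924 hosts were called lower, and none of the 5 rose (7.47% over all hosts). DESeq2 called 0 of these hosts higher (4.64% of all hosts to which it gave an adjusted p) and 1 lower (3.01%), again Nphp4. At an unadjusted p under 0.05, 0 hosts were higher (11.9%) and 2 lower (12.5%). On the SRPBM scale 0 were called higher (0.178%) and 4 lower (76%), with Nphp4 at -3.09.

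The strongest Nphp4 circRNA spans 4610 bases (chromosome 4, 152502874 to 152507483, exon class) and had 73, 74, 10 and 7 reads. It fell by 1.96 on the log2 scale (SE 0.39, adjusted p 0.00364 by edgeR), but DESeq2 gave an adjusted p of 0.0613. The one of 10835 bases (152496649 to 152507483) held 50, 77, 11 and 3 reads and fell by 2.01 (SE 0.51; adjusted p 0.0217 by edgeR and 0.102 by DESeq2). Without wild type P13 or without deletion P13 it no longer passed (adjusted p 0.0716 and 0.0668 by edgeR). The log2 fold change was -1.28 without deletion P13 and -3.30 without deletion P12. Both use the donor at 152507483. A circRNA farther along the gene (152518093 to 152524368) held 28, 41, 12 and 14 reads, with a log2 fold change of -0.24 that did not pass.

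Reads ending at the Nphp4 donor 152507483 numbered 131, 160, 21 and 12, and those ending at 152524368 numbered 53, 66, 17 and 18. The latter made up 25.2%, 25.3%, 44.7% and 60.0% of the host, with exact intervals of 28.6% to 61.7% and 40.6% to 77.3% in the deletion libraries. In P12 the wild-type and deletion intervals overlapped, and in P13 they did not. Of the 19 Nphp4 circRNAs 14 were listed in wild type alone and 0 in the deletion alone, where 42.3% and 10.7% of all circRNAs were, and the wild-type libraries were the deeper ones. Those 14 held 100 reads in all, at most 26 each. The one with 26 reads (152496649 to 152524368) held 13 in each wild-type library, so that about 5.88 and 5.83 reads would be met in the deletion libraries at an equal level. With the deletion libraries put at a floor of 3 reads each, it was lower by a factor of 1.96 on P12 and 1.94 on P13. These factors leave out counting error and are not bounds. It entered the fit through the wild-type libraries alone and did not pass (adjusted p 0.359, edgeR). No circRNA is listed with fewer than 2 reads.

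Rpgrip1l encodes a transition zone protein related to Rpgrip1 that is found in cilia of many tissues. It had 2 circRNAs. The one on chromosome 8 from 91299229 to 91305017 held 6, 8, 7 and 5 reads, and the shorter one held 3, 4, 2 and none listed. Neither reached the filter, and no difference was detectable at this depth. Over the 4 libraries Rpgrip1l gave 35 junction reads and Rpgrip1 gave 6648.

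Cep290, a large protein of the Y-links, gave 1 circRNA (chromosome 10, 100528549 to 100536917, exon class, 8369 bases). It held 25, 33, 21 and 18 reads. The circRNA's log2 fold change of 0.58 (SE 0.42) did not pass (adjusted p 0.488, edgeR) and was -0.87 on the SRPBM scale. Iqcb1, also called nephrocystin-5 and a partner of Cep290, had 2 circRNAs that share an acceptor on chromosome 16 at 36831502. Wild type P12 gave them 8 and 2 reads, and the other libraries list neither. Iqcb1 was left untested for lack of reads.

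Lca5 encodes lebercilin and Fam161a a microtubule-binding protein, both placed along the microtubules of the connecting cilium. Lca5 reads summed to 516, 646, 160 and 236, and the log2 fold change of -0.35 (SE 0.15) did not pass (adjusted p 0.0893, edgeR). It passed when libraries were scaled on total reads (-0.42, adjusted p 0.0343) and without deletion P13 (-0.53, adjusted p 0.0249). The circRNA on chromosome 9 from 83423023 to 83426961 (minus strand, exon class) held 209, 275, 46 and 84 reads. It fell by 0.78 on the log2 scale (SE 0.20, adjusted p 0.0225 by edgeR). DESeq2 gave an adjusted p of 0.176. In edgeR it no longer passed without the day term (0.0790), without wild type P12 (0.0618), without wild type P13 (0.229) or without deletion P12, where the fold change shrank to -0.45 (0.254).

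Another Lca5 circRNA of nearly the same abundance, from 83423023 to 83428948 (intron class), held 187, 232, 57 and 84 reads with a log2 fold change of -0.43 (adjusted p 0.225, edgeR). It joined the same donor to an acceptor farther upstream. The circRNA farther downstream (83398512 to 83401749) held 69, 68, 46 and 48 reads. The log2 fold change was 0.61 and did not pass (adjusted p 0.174), and it was -0.85 on the SRPBM scale. Its share of the host was 13.4%, 10.5%, 28.8% and 20.3%, and the deletion P12 interval (21.9% to 36.4%) lay above both wild-type intervals. Fam161a had 2 circRNAs with 15 and 7 reads in all, none of them listed in deletion P12, and was not tested.

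Several back-splices differed from a stronger one by a small step at 1 end. In Rpgrip1, acceptors at 52147210 and 52147215, 5 bases apart, joined the donor 52150493 with 326 and 36 reads over the 4 libraries. The weaker form held 7, 12, 8 and 9 reads. In Nphp4, donors at 152507481 and 152507446 lay 2 and 37 bases from the donor 152507483 and held 3 and 6 reads, all in wild type. In Lca5 an acceptor 24 bases from 83428948 held 10 reads against 560. Whether the caller or the splice site set these small steps was not tested.

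The genotype was next compared within each day as the ratio of scaled counts between single libraries. A circRNA with at least 20 reads over the pair was called when it differed by 2-fold or more (a ratio of 2 or above, or 0.5 or below) and its exact 95% counting interval excluded 1. These calls compare libraries, have no replicate check and carry no p-value. At P12, 3 of 22 were called higher (10.9% of all circRNAs tested) and 5 lower (10.6%). At P13, 2 of 25 were called higher (10.3%) and 2 lower (9.58%). The median ratio of the members was 0.891 at P12 and 0.799 at P13, against 0.977 and 0.975 over all.

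The 649-base Rpgrip1 circRNA had ratios of 3.96 (interval 2.62 to 6.05) at P12 and 5.04 (3.03 to 8.63) at P13. The 2302-base one had 5.03 (3.59 to 7.13) and 3.66 (2.42 to 5.59). The 5912-base one had 2.28 (1.70 to 3.07) at P12 and, just under the limit, 1.96 (1.45 to 2.64) at P13. The leading Rpgrip1 circRNA had 0.852 (0.768 to 0.943) and 0.699 (0.634 to 0.770), below 1 on both days but short of the size asked for a call. These ratios were on the same side of 1 on both days.

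For Nphp4, the 4610-base circRNA had ratios of 0.303 (0.139 to 0.589) and 0.211 (0.0819 to 0.456). The 10835-base circRNA had 0.486 (0.228 to 0.946) at P12 and 0.0868 (0.0175 to 0.263) at P13, the latter from 3 reads in the deletion. Whether the genotype difference itself differed between the days was not tested. In Lca5, 83423023 to 83426961 was called lower at P12 (0.487, 0.346 to 0.672) and not at P13 (0.681, 0.527 to 0.872). The other circRNAs called lower at P12 were 83426593 to 83428948 of Lca5 (40 against 6 reads) and 52120473 to 52131432 of Rpgrip1 (34 against 4 reads).

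**Figure D5:**
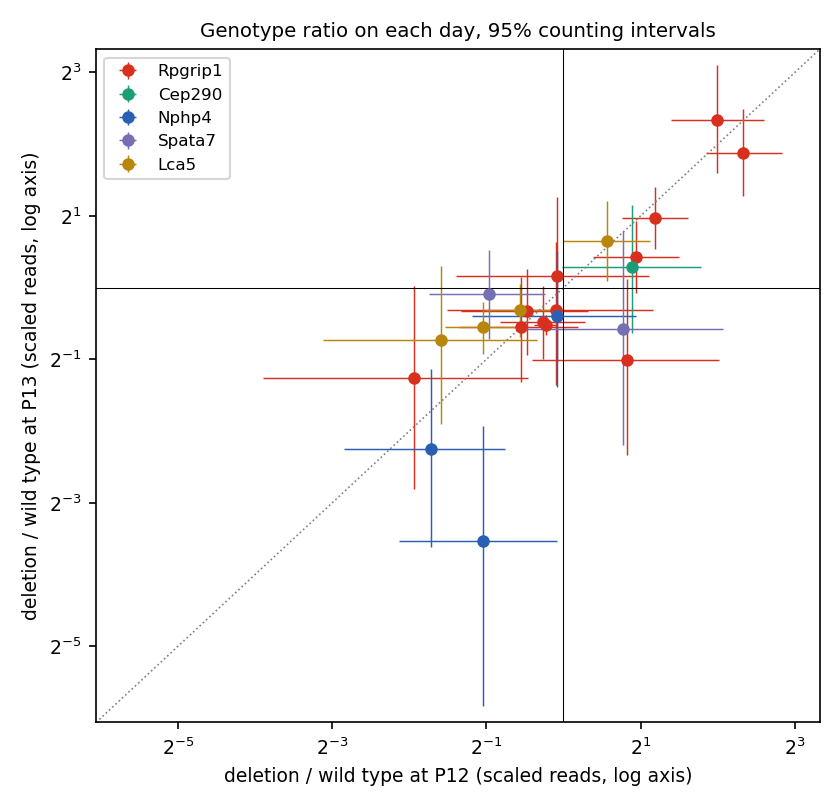
Ratio of scaled reads, deletion over wild type, at P12 (horizontal, log axis) and P13 (vertical, log axis) for the 22 member circRNAs with enough reads on both days, coloured by host, with 95% counting intervals. Of the 22, 19 lie on the same side of 1 on both days; the 10835-base Nphp4 circRNA lies lowest, at 0.486 and 0.0868.

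Between P13 and P12, 0 of 26 circRNAs and 0 of 5 hosts passed edgeR's test (0 higher and 2 lower circRNAs at an unadjusted p under 0.05, where all circRNAs gave 1.8% and 1.78%, and 0 by DESeq2). Of the hosts, 0 were higher (2.29% of all) and 0 lower (2.34%) at an unadjusted p under 0.05. Over all circRNAs 0.0114% were called in each direction after adjustment, and over all hosts 0.0255% were called higher and 0.102% lower. On the SRPBM scale the median of all circRNAs was 0.12 for this comparison, and 0 member circRNAs were called there. The 2 circRNAs with an unadjusted p under 0.05 were the 2302-base Rpgrip1 circRNA (log2 -0.82, SE 0.24) and the 649-base one (-0.70, SE 0.28). Neither passed after adjustment (adjusted p 0.999 by edgeR).

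Between single libraries, 1 of 28 circRNAs was called higher at P13 in wild type (4.48% over all) and 0 lower (4.62%). It was the Rpgrip1 circRNA from 52131159 to 52138902, which went from 15 to 36 reads (ratio 2.12, 1.13 to 4.16) and from 12 to 8 in the deletion. In the deletion, 0 of 17 were called higher (4%) and 1 lower (4.19%). This was the 2302-base Rpgrip1 circRNA (116 to 64 reads, ratio 0.491, 0.356 to 0.671). In wild type its ratio was 0.675 (0.433 to 1.04).

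A list of 57 other genes of the transition zone, inversin compartment, basal body and ciliary gate was read beside the 8 hosts. Of these, 53 matched the gene table and 37 had circRNAs, 502 in all. Of 108 tested circRNAs 5 rose (4.63%, against 5.03% of all tested) and 6 fell (5.56%, against 3.59%) in the deletion (edgeR). DESeq2 called 4 higher and 1 lower (3% and 1.64% of all circRNAs to which it gave an adjusted p). The median log2 fold change was -0.01, against -0.32 for the members, of which 4 entered through the wild-type libraries alone. Those that fell included 3 circRNAs of Ttc8, a BBSome subunit gene (93, 125, 13 and 16 reads for the strongest, log2 -1.75), and 1 each of Poc1b (-0.93) and Rab3ip (-0.89). Those that rose included 1 of Tmem231, a transition zone membrane protein gene (29, 22, 56 and 48 reads, log2 2.18) and 1 of Invs (0, 0, 13 and 22 reads). The Invs circRNA entered the fit through the deletion libraries alone, and this way of entry favours a rise. On summed reads 6 of 29 genes rose (20.7%, against 7.47% of all hosts) and 2 fell (6.90%, against 6.47%) by edgeR. DESeq2 called 2 higher and 0 lower (4.64% and 3.01% of all hosts to which it gave an adjusted p). No circRNA and no host of the list passed between the days (edgeR; DESeq2 also called 0).

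The hosts whose levels over the 4 libraries lay nearest to the sum over the 8 members (4659, 5108, 4808 and 4453 CPM) were Pbrm1, Pld5, Hnrnpll, Gm20757 and Togaram1. Nearness was the Euclidean distance of mean-centred log2 levels over 4 libraries, among 1658 hosts with at least 200 reads. It ran from 0.0485 for Pbrm1 (473, 538, 501 and 472 CPM) to 0.0595 for Togaram1 (268, 287, 262 and 244). All are hosts that varied little between the libraries, and Rpgrip1 reads dominate the sum they were matched to.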

How the data were processed

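CircRNA tables of 4 libraries, 1 per group, were analysed. Per the file headers, the deposited columns are those of the caller CIRI. The authors' counts are whole back-spliced junction reads and non-junction reads, and the deposited junction ratio is a fraction computed from them. In the deposited SRPBM signal the authors divided the counts by 1 constant per library. The labels' protocols state that rRNA and linear RNA were depleted before paired-end sequencing. The submitters' processing notes name BWA and DESeq2; the sources used here give no genome build, annotation or caller version.

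Host identifiers were matched to RefSeq symbols of GRCm38.p6 (99.8% of 7252), used for names only, and all 88 circRNAs lay inside their host's interval there. Class or host differed between tables for 65 circRNAs, none of them among the 88. The members, lists and tests were chosen with earlier results of these data known.

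Counts were fitted with edgeR 4.0.16 (TMM, robust quasi-likelihood, R 4.3.3), with genotype and day as terms and 1 residual degree of freedom. The same filter left 3924 hosts in the fit on host sums. SEs were derived from the test statistic and are approximate. Alternatives were DESeq2 1.42.0, other scalings and filters, left-out libraries and, added after seeing the data, counting reads of a circRNA within 2500 position units on a tile as 1 read. Such reads made up between 6.44% and 9.23% of member reads and between 7.51% and 7.74% of all reads. The circRNAs named singly are the 3 most abundant of each host, every one called, and the longest and shortest. Named besides, after their values were seen, were those with a small step at 1 end and the Nphp4 circRNA with 26 reads. In Rpgrip1 these were 52126279 to 52133859 and the donors 52131305 and 52136818. Hosts most alike were ranked with a pseudocount of 0.5. Single values of some listed genes are not reported here.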

Additional observations from a re-analysis of the deposited data

How the results depend on the processing

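Each alternative changed 1 choice, except that a fit without a library kept a single term, genotype or day, since 3 libraries leave no residual degree of freedom for both. A group left with 1 library is then assumed to vary like the other. Of the 3 member circRNAs higher and 3 lower in the deletion, the SRPBM scale left 0 higher and called 16 lower, and DESeq2 called 0 lower. Without 1 library in turn, 3 were higher each time and between 1 and 4 lower, with 1 left without wild type P13. For hosts 1 was lower, against 2 on total reads, 4 on the SRPBM scale and between 1 and 2 without a library, with 2 without deletion P13. Between single libraries the SRPBM scale called 0 higher and 14 lower at P12, and 0 higher and 19 lower at P13. With a ratio limit of 1.5, 4 were higher in the deletion at P13, 1 was lower at P13 in wild type and 1 was higher at P13 in the deletion. The Rpgrip1 host sum turned to -0.00376 (log2) on total reads and -1.46 on the SRPBM scale, and ran from -0.0429 (without deletion P12; -0.00788 without wild type P12) to 0.18 without a library. The Spata7 host sum ran from -0.20 to 0.05 without a library, above 0 without wild type P12 (0.0220) or deletion P12 (0.0516). On the SRPBM scale the Cep290 host sum and its circRNA both stood at -0.87, and the 5912-base Rpgrip1 circRNA at -0.38. The leading Rpgrip1 circRNA passed as lower with no filter, on the SRPBM scale and without deletion P12. All 6 circRNA calls held with neighbouring reads counted as 1. No paired analysis was possible because each group held 1 library, with no replicate numbers to pair by, other than the matching by day that the day term gives; without that term 3 circRNAs were higher and 2 lower. Under the other alternatives 138 counts and shares stayed close to those reported (counts within 1.5 times), and 154 values of single hosts and circRNAs kept their direction and their side of the threshold. Depth limits the 62 untested circRNAs, for which no difference could be shown.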
